A study of Mus musculus with 7 samples.

Results

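The 9 genes described here encode enzymes that take methyl groups off lysine 4 of histone H3 and the proteins that bring one of these enzymes to DNA: Kdm1a, Kdm1b, Kdm5a, Kdm5b, Kdm5c, Rcor1, Rcor2, Rcor3 and Rest. They were taken by gene name from tables of transcript abundance that hold 16143 genes and 55404 transcripts, of which these genes account for 48 transcripts. Abundance was given as TPM (a length-scaled share of a library's transcripts), and TPM was summed over the transcripts of each gene.

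The cells came from retinas of ICR mice, an outbred stock, removed at embryonic day 17.5 and kept in culture for 2 days. All retinas were electroporated with an EGFP plasmid, together with either a control plasmid (3 libraries) or a plasmid expressing the hairpin shKmt2f (4 libraries), and EGFP-positive cells were then sorted. Kmt2f is another name of Setd1a, which encodes a methyltransferase that writes the same histone mark, so the comparison asks what became of the erasers and their partners when a writer was knocked down. The labels do not say which promoter drove the hairpin, whether more than 1 hairpin was used, or whether the libraries came from separate animals. The p-values therefore measure the spread between libraries, which may be technical. In sorted cells that hold several types, fewer cells of a type and less RNA per cell cannot be told apart.

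Methylation of lysine 4 of histone H3 marks active promoters and enhancers. Kdm1a (LSD1) and Kdm1b (LSD2) are flavin-dependent oxidases that remove mono- and dimethyl groups, whereas Kdm5a, Kdm5b and Kdm5c are JmjC dioxygenases that remove tri- and dimethyl groups. LSD1 acts on nucleosomes through a CoREST scaffold, encoded by Rcor1, Rcor2 or Rcor3, which also carries the histone deacetylases Hdac1 and Hdac2. REST, a zinc finger repressor, binds RE1 elements beside neuronal genes and recruits CoREST and LSD1. In mammalian neurons a micro-exon of LSD1 is included by splicing, and in the developing retina LSD1 is known for its part in photoreceptor gene expression.

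The hairpin's target, summed over its transcripts as for every other gene, stood at 11.7, 7.83 and 7.36 TPM with the control plasmid and 8.26, 7.997, 4.501 and 6.99 TPM with shKmt2f. The groups overlapped, and the log2 fold change of -0.33 (standard error, s.e., 0.23) did not pass (limma adjusted p = 0.365, a test described below). With TPM weighted by transcript length Setd1a was lower (-0.78, limma adjusted p = 0.0223). Its longest transcript (6487 bases) was below 1 TPM in all libraries, at 0.767, 0.960 and 0.764 TPM with the control plasmid and 0.407, 0.328, 0.374 and 0.432 TPM with shKmt2f, without overlap (exact permutation test over 35 splits, two-sided, p = 0.0286, the smallest that 3 against 4 libraries can give). Retinal progenitor markers, 8 of 8 in the tables, summed to 856 to 1020 TPM with the control plasmid and 657 to 770 TPM with shKmt2f, which did not overlap. Groups of single markers were apart with shKmt2f lower for 4 of the 8, beside 9.67% of all genes tested. Pax6, Sox2 and Hes1 went the other way, at 107.6%, 101.6% and 107.6% of control with overlapping groups. Hes5 made up 31.0% of the mean sum with shKmt2f. Photoreceptor markers, 7 of 7 in the tables, summed to 436 to 544 TPM with the control plasmid and 679 to 904 TPM with shKmt2f, also without overlap. The 7 ganglion cell markers (11.3 to 17.1 against 27.5 to 32.0 TPM) and the 6 amacrine and horizontal cell markers (80.6 to 92.5 against 105 to 114 TPM) were likewise apart. Microglia (1 of 6 markers in the tables, at most 1.54 TPM), astrocyte (1 of 3, at most 0.236 TPM) and lens markers (3 of 5, at most 0.502 TPM) were near 0. Summed levels overlapped between the groups for Müller glia (307 to 423 TPM over all libraries) and endothelium markers (3 of 5 in the tables, 62.3 to 108.7 TPM). Of the Müller glia markers, Glul stood at 68.2% of control (limma adjusted p = 0.0190). Rlbp1, Slc1a3 and Aqp4 stood at 122.3%, 140.8% and 509.6%, Aqp4 at most at 0.296 TPM. Kdr made up 76.25% of the endothelium sum with shKmt2f, and Pecam1 was near 0. The pigment epithelium markers, 3 of 6 in the tables, lay at 3.801 to 4.42 TPM in the control and 5.67 to 7.62 TPM in the shKmt2f libraries. Dct made up 95.6% of that sum with shKmt2f, and Pmel, near 0, stood at 49.2% of control. Control replicates 1 and 2 held RNA of the Y-linked gene Uty at 1.78 and 2.24 TPM, whereas the other 5 libraries had at most 0.0929 TPM. The donors' sex was thus not balanced between the groups and is partly confounded with the hairpin for every gene compared. Its part was not tested.

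All 9 genes were expressed above 1 TPM in all 7 libraries, and their mean levels spanned 3.13 TPM for Rest to 261.9 TPM for Rcor2. In descending order of mean level, which TPM allows to be compared between genes because it is scaled by length, they were Rcor2, Kdm1a, Kdm5a, Kdm5b, Kdm5c, Kdm1b, Rcor3, Rcor1 and Rest. Rcor2 exceeded Kdm1a in 7 of 7 libraries, although their ranges over the libraries overlapped. Kdm1a, at 139.7 TPM, lay 3.10 times above Kdm5a, the only pair of neighbours whose ranges did not overlap. By summed TPM, Kdm5a exceeded Kdm5b in 5 of 7 libraries, Kdm5c exceeded Kdm1b in 4 of 7, and Rcor1 exceeded Rest in 5 of 7. These neighbours did not differ beyond their spread.

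**Figure D1:**
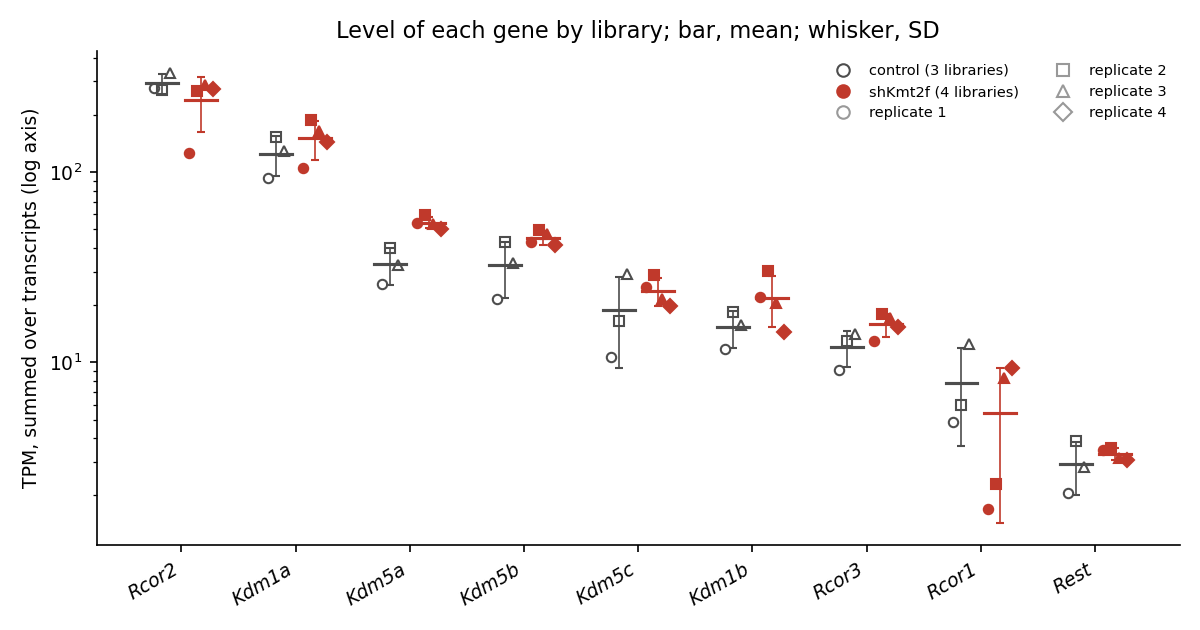
Summed TPM (vertical log axis) of each of the 9 genes in the 3 control libraries (open grey symbols) and 4 shKmt2f libraries (filled red symbols), with symbol shapes for replicates, bars for group means and whiskers for the SD. Kdm5a is the gene whose groups do not overlap, with control libraries at 25.9 to 40.1 TPM and shKmt2f libraries at 50.4 to 59.3 TPM.

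One of the genes, Kdm5a, passed the test between the groups, and it was higher in shKmt2f libraries. The test was limma on log2(TPM + 1), fitted to the 12456 genes that reached 1 TPM in 3 or more libraries and adjusted over all of them by the Benjamini-Hochberg method. Under the same rule 14.1% of all genes tested were called, 10.4% as higher and 3.69% as lower, so 1 of 9 is a share near the background. Fold changes were positive for 7 of the 9 genes and negative for Rcor1 and Rcor2, with a median of 0.38 on the log2(TPM + 1) scale, on which a change of a low gene is understated, against 0.09 over all genes tested. The median of the 9 was 0.05 with the correction for GC content and length described below (0.00 over all genes) and 0.09 without control replicate 1 (0.03 over all genes). At an unadjusted p under 0.05 the genes were 2 of 9, Kdm5a and Kdm5b, beside 32.3% of all genes tested. Groups that did not overlap were seen for 1 of the 9 genes, where 19.2% of all genes tested did not overlap with shKmt2f higher and 9.67% with shKmt2f lower.

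**Figure D2:**
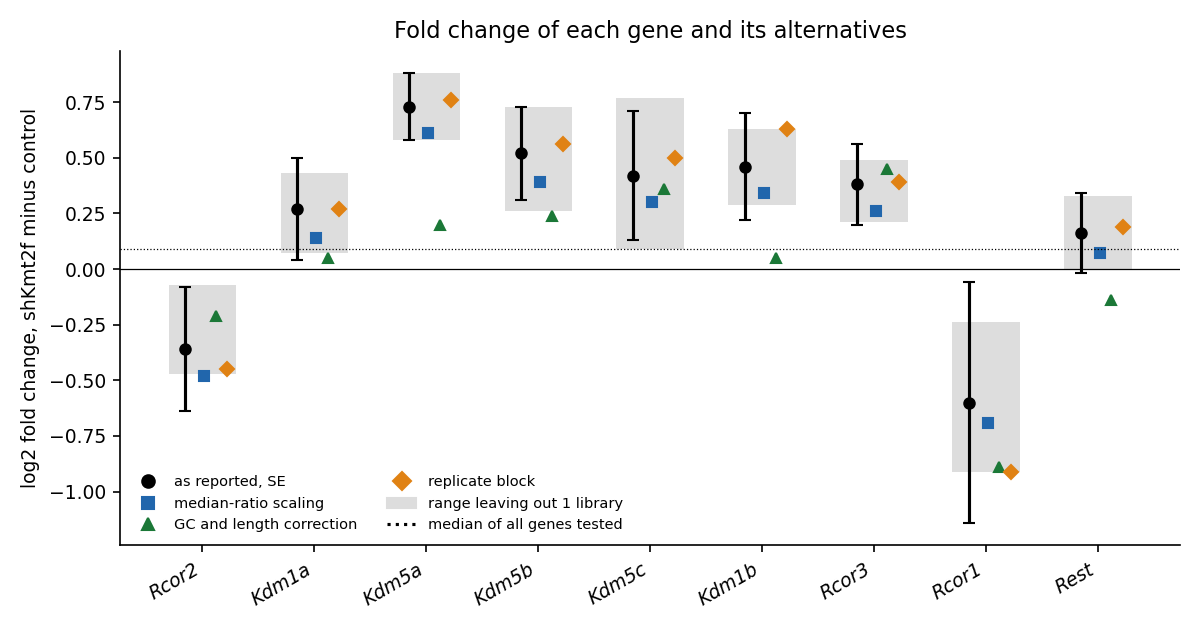
Log2 fold change, shKmt2f minus control, of each of the 9 genes (black points with SE), beside its value under median-ratio scaling, under a correction on GC content and transcript length, and with a replicate block. Grey boxes give the range when 1 library is left out and the dotted line the median of all genes tested, 0.09. Kdm5a has the largest positive value, 0.73, which is 0.20 after the GC and length correction.

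Kdm1a (ENSMUSG00000036940) lies on the minus strand of chromosome 4 of GRCm38, from 136550540 to 136602723, and has 9 transcripts in the tables. Its summed level was 93.1, 152 and 130 TPM in the control libraries and 105, 189, 165 and 145 TPM in the shKmt2f libraries. The groups overlapped, and control replicate 1 was lowest. Means of 124.9 ± 29.8 TPM (SD, n = 3) and 150.8 ± 35.7 TPM (SD, n = 4) gave a log2 fold change of 0.27 (s.e. 0.23) that did not pass in limma (adjusted p = 0.456).

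Splicing of Kdm1a is known to change the enzyme's partners in neurons, so the transcripts were compared by their optional exons. The micro-exon has 12 bases (chromosome 4, 136563438 to 136563449, minus strand) and is present in Kdm1a-208. It is shown with 30 bases of transcript on either side, the micro-exon in capitals, above the same junction in a transcript without it, all from GRCm38 with GENCODE vM21 exons.
Kdm1a-208: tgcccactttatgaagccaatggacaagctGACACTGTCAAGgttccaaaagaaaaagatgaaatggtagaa
Kdm1a-202: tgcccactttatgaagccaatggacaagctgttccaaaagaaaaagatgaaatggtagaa
A longer optional exon of 60 bases (136582040 to 136582099) lies closer to the start of the coding region and is present in Kdm1a-202, where it is again in capitals, and absent from Kdm1a-203.
Kdm1a-202: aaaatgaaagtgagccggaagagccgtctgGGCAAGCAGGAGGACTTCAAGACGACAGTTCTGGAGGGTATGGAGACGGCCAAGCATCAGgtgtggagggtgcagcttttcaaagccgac
Kdm1a-203: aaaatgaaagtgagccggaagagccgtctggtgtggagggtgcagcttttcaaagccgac

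The share with the micro-exon was taken of the TPM of Kdm1a-208, which has it, and Kdm1a-202, Kdm1a-203 and Kdm1a-207, which read across its position without it. Kdm1a-201, which held 25.3% of Kdm1a TPM with the control plasmid and 27.1% with shKmt2f, was not counted. The micro-exon share was 27.3%, 19.7% and 25.3% in the control libraries and 24.3%, 21.4%, 26.6% and 25.3% in the shKmt2f libraries. The transcript with the neuronal micro-exon thus gave a similar part of the TPM in both groups, and the means of 24.1% ± 3.98 and 24.4% ± 2.21 differed by less than the spread between libraries (exact permutation p = 0.886, two-sided). The 60-base exon was present in 52.3% ± 4.52 of the control TPM and 50.3% ± 3.88 of the shKmt2f TPM across its position, again with overlapping groups (exact permutation p = 0.514). These shares rest on how reads common to overlapping transcripts were divided by the quantification, and Kdm1a-208, Kdm1a-207 and Kdm1a-201 are annotated as incomplete.

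**Figure D3:**
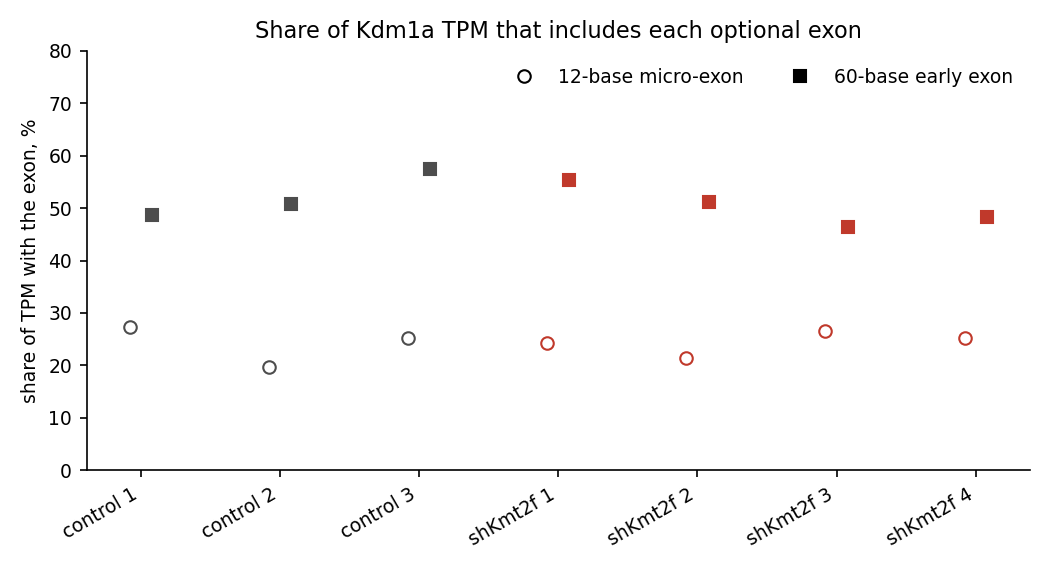
Share of Kdm1a TPM, in percent, from transcripts that include the 12-base micro-exon (open circles) or the 60-base early exon (filled squares), among transcripts that span each exon's position, in each control (grey) and shKmt2f (red) library. The micro-exon share lies between 19.7% and 27.3% in all 7 libraries and the groups overlap for both exons. Kdm1a-201 is not counted for the micro-exon.

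The most abundant Kdm1a transcript was Kdm1a-202, a complete coding transcript of 3028 bases, at 38.9 ± 11.4 TPM with the control plasmid and 45.1 ± 9.18 TPM with shKmt2f. Kdm1a-203, the complete coding transcript without the early exon, was uneven, with 3.83, 5.69 and 0.908 TPM with the control plasmid and 0.298, 1.84, 7.40 and 7.996 TPM with shKmt2f. The 4 retained-intron transcripts carried 5.04% ± 1.56 of Kdm1a TPM with the control plasmid and 3.12% ± 0.272 in shKmt2f libraries (exact permutation p = 0.0571). Among them Kdm1a-209 held 1.80% ± 0.347 and 0.934% ± 0.326 of the gene (exact permutation p = 0.0286). Over all 71 shares of transcripts or transcript classes tested, the smallest Benjamini-Hochberg adjusted p was 0.507, so no share passed the correction.

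Kdm1b (ENSMUSG00000038080; chromosome 13, 47043499 to 47085279) encodes LSD2, which works without a CoREST scaffold and binds NPAC, the product of Glyr1. It stood at 11.8, 18.5 and 15.7 TPM with the control plasmid and 22.0, 30.1, 20.6 and 14.4 TPM with shKmt2f. The groups overlapped through shKmt2f replicate 4, and the means of 15.3 ± 3.35 and 21.8 ± 6.49 TPM gave a log2 fold change of 0.46 (s.e. 0.24, limma adjusted p = 0.234). Of the TPM of both LSD genes, Kdm1a made up 89.0% ± 0.247 in control and 87.2% ± 3.61 in shKmt2f libraries, with a low of 82.6% in shKmt2f replicate 1. Its complete coding transcript, Kdm1b-201 (4987 bases), held 6.81 ± 2.15 and 8.72 ± 2.50 TPM. Kdm1b-203, a retained-intron transcript, was listed at 0 in control replicate 3 and in shKmt2f replicate 4.

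Kdm5a (ENSMUSG00000030180; chromosome 6, 120364124 to 120444574, plus strand) encodes a demethylase first described as a binding protein of the retinoblastoma protein. Its level was 25.9, 40.1 and 32.3 TPM in the control libraries and 54.1, 59.3, 53.3 and 50.4 TPM in the shKmt2f libraries. Every shKmt2f library lay above every control library. Kdm5a rose from 32.8 ± 7.11 TPM (SD, n = 3) to 54.3 ± 3.69 TPM (SD, n = 4), or to 165.7% of control, a log2 fold change of 0.73 (s.e. 0.15) with a limma adjusted p of 0.0247. The call was lost when any of 6 libraries was left out, with limma adjusted p of 0.0669 without control replicate 1, 0.0683 without control replicate 3, and 0.0722, 0.0680, 0.0566 and 0.0535 without shKmt2f replicates 1, 2, 3 and 4. Without control replicate 2 the adjusted p was 0.00307.

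Kdm5a transcripts are poor in GC and long, and such genes were called higher more often in these libraries. Kdm5a has a GC content of 43.4%, in the lowest of 5 equal bins, and a mean transcript length of 2561 bases, in bin 4 of 5. Among the 587 genes in both of these bins, 37.0% were called higher and the median log2 fold change was 0.64, against 10.4% and 0.09 over all genes. After each library was corrected for GC content and for length, the log2 fold change of Kdm5a was 0.20 with limma adjusted p = 0.148.

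Of the 7 Kdm5a transcripts, which are parts of the same gene sum, 3 had groups that stood apart with shKmt2f higher, beside 12.2% of all transcripts. The groups overlapped for the 4 retained-intron transcripts. Kdm5a-209, a coding fragment of 460 bases, stood at 6.85, 11.1 and 13.0 TPM with the control plasmid and 15.4, 21.8, 19.6 and 16.6 TPM with shKmt2f. Kdm5a-204, of 3329 bases and annotated for nonsense-mediated decay, stood at 7.30, 12.2 and 8.78 TPM with the control plasmid and 16.8, 19.6, 14.8 and 16.4 TPM with shKmt2f. Kdm5a-201, the complete coding transcript of 10944 bases, stood at 2.55, 4.42 and 3.29 TPM with the control plasmid and 6.01, 5.77, 5.22 and 5.81 TPM with shKmt2f. For these 3 transcripts no library of one group reached into the other. Their log2 fold changes were 0.80, 0.80 and 0.62, but with an adjustment over the 37024 transcripts tested none passed (limma adjusted p = 0.0832, 0.0622 and 0.0935). In the authors' deposited table, Kdm5a-204 has an effect of 0.52 on the natural log scale with q = 0.000161, Kdm5a-201 one of 0.45 with q = 0.00107, and Kdm5a-209 one of 0.52 with q = 0.0662.

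The complete coding transcript made up 10.4% ± 0.590 of Kdm5a TPM with the control plasmid and 10.5% ± 0.911 in shKmt2f libraries, and Kdm5a-204 28.6% ± 1.66 and 31.1% ± 2.37, so the proportions differed by little while the sum rose. Kdm5a-204 differs from Kdm5a-201 at exon 13, which runs 25 bases further (chromosome 6, 120399058 to 120399082), lacks exon 18 of 115 bases and ends within the exon that is number 22 of Kdm5a-201. The extra bases are in capitals in the first of the sequences below, from GRCm38, with 30 bases on either side.
Kdm5a-204: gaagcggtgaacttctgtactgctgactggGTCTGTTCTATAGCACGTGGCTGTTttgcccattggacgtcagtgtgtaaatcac
Kdm5a-201: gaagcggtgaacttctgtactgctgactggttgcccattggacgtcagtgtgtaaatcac

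**Figure D4:**
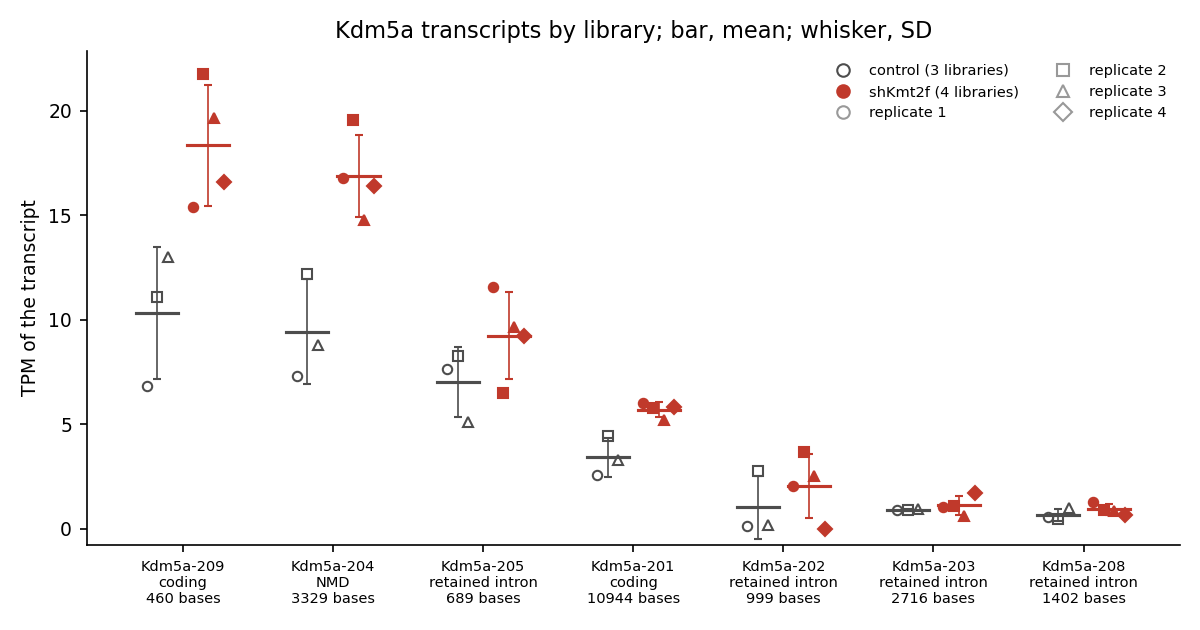
TPM of each of the 7 Kdm5a transcripts in control (open grey) and shKmt2f (filled red) libraries, with symbol shapes for replicates, bars for means and whiskers for the SD; the labels give class and length. The groups are apart for Kdm5a-209, Kdm5a-204 and Kdm5a-201 and overlap for the 4 retained-intron transcripts.

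Across the libraries, the protein-coding genes whose profile was closest to that of Kdm5a were Gbe1, Ssr3 and Kpna4. Their root mean square differences from Kdm5a on the centred log2(TPM + 1) scale were 0.0321, 0.0468 and 0.0520 over 7 libraries, among 11310 protein-coding genes compared. Gbe1, the glycogen branching enzyme, stood at 22.1, 34.4 and 26.9 TPM with the control plasmid and 47.3, 50.6, 44.1 and 41.1 TPM with shKmt2f.

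Kdm5b (ENSMUSG00000042207; chromosome 1, 134560171 to 134635285) encodes the demethylase also known as PLU-1. It stood at 21.5, 42.7 and 33.2 TPM with the control plasmid and 42.9, 49.5, 47.3 and 41.4 TPM with shKmt2f. The groups overlapped only through control replicate 2, which lay above shKmt2f replicate 4. The log2 fold change of 0.52 (s.e. 0.21) did not pass (limma adjusted p = 0.126). It passed without control replicate 2 (0.73, limma adjusted p = 0.0231), and it was 0.26 without control replicate 1 (0.331) and 0.24 with the GC and length correction (0.318). The main coding transcript, Kdm5b-203 of 5413 bases, stood at 16.2 ± 5.32 and 24.6 ± 2.41 TPM with groups that did not overlap (log2 fold change 0.62, limma adjusted p = 0.139). In the opposite direction, Kdm5b-206, an unspliced stretch of 4402 bases annotated as a retained intron, stood at 0.939, 1.38 and 1.30 TPM with the control plasmid and 0.888, 0.765, 0.501 and 0.870 TPM with shKmt2f. It lay below the level needed for limma, its groups did not overlap (exact permutation p = 0.0286), and in the authors' deposited table its effect is -0.56 with q = 0.0101.

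Of the 48 transcripts of the 9 genes, 28 are coding, 17 retained-intron and 3 annotated for nonsense-mediated decay, and 39 were tested. None passed in limma, where 2.24% of all transcripts tested were called, 1.44% as higher and 0.794% as lower. An unadjusted p under 0.05 was seen for 6, among them Kdm5a-209, Kdm5a-204 and Kdm5a-201, which are parts of the same gene sum. The share over all transcripts at that threshold was not computed, so this count has no background to be read against. Over all genes tested it was 32.3%. Groups did not overlap with shKmt2f higher for 6 of the 48 and with shKmt2f lower for 1, beside 12.2% and 5.84% of all transcripts. By the authors' deposited table of q-values, 3 of the 48, or 6.25%, have q under 0.05, beside 5.52% of all transcripts.

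Kdm5c (ENSMUSG00000025332; chromosome X, 152233020 to 152274535) is an X-linked gene that escapes X inactivation and has a Y-linked paralog, Kdm5d. It stood at 10.7, 16.6 and 29.0 TPM with the control plasmid and 25.0, 28.6, 21.6 and 19.7 TPM with shKmt2f. The lowest levels were in control replicates 1 and 2, and control replicate 3 lay above every other library. The log2 fold change was 0.42 (s.e. 0.29, limma adjusted p = 0.361). Control replicates 1 and 2 were also the libraries with RNA of Y-linked genes. Eif2s3y, a translation factor gene on Y, stood there at 1.85 and 3.52 TPM and at 0.154 TPM or less elsewhere. Kdm5d stood at 2.32 and 3.37 TPM there and at 1.17 to 1.42 TPM in the others, so a level above 1 TPM was listed for it also where Uty was near 0. When both control libraries were left out together, a choice made after seeing the data that leaves 1 control library assumed to vary like the rest, the log2 fold change of Kdm5c turned to -0.29 (s.e. 0.22, limma adjusted p = 0.410). The part of the donors' sex in the Kdm5c levels was not tested further.

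**Figure D5:**
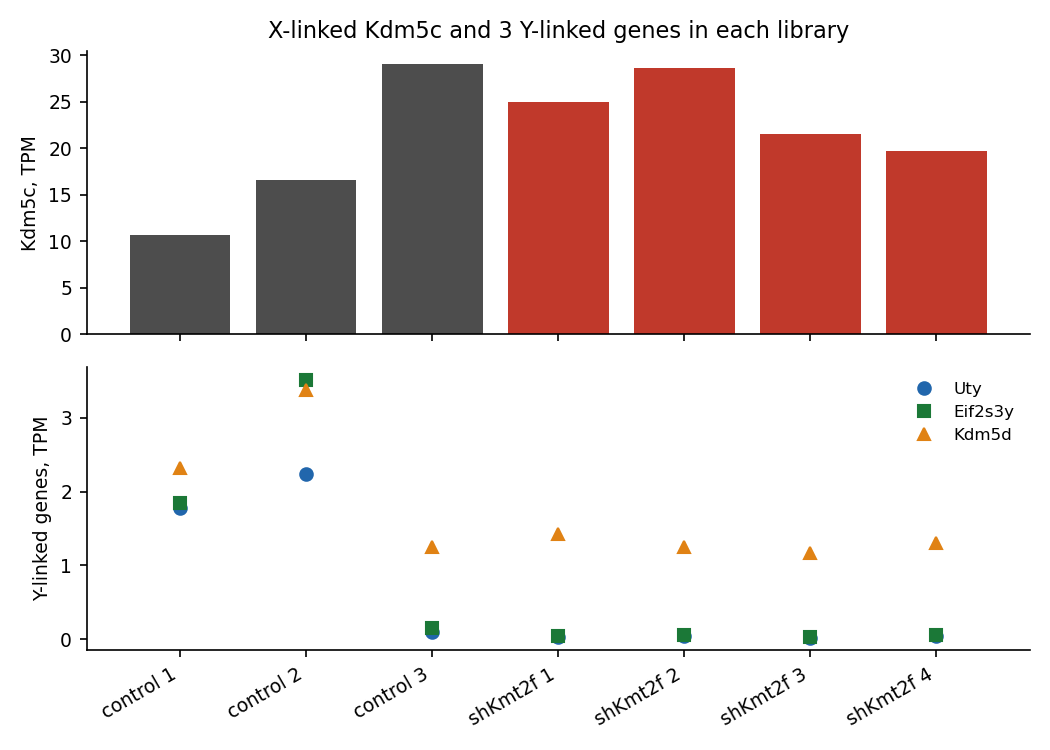
TPM in each library of X-linked Kdm5c (upper panel, bars from 0, control grey and shKmt2f red) and of the Y-linked genes Uty, Eif2s3y and Kdm5d (lower panel, points). Kdm5c is lowest, at 10.7 and 16.6 TPM, in control replicates 1 and 2, where Uty and Eif2s3y stand at 1.78 TPM or more.

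Among Kdm5c transcripts, Kdm5c-201, a complete coding transcript of 5520 bases, stood at 2.67 ± 1.75 TPM with the control plasmid and 5.57 ± 1.99 TPM with shKmt2f (log2 fold change 0.91, s.e. 0.36, limma adjusted p = 0.182). Transcripts complete at both coding ends made up 36.8% ± 3.37 of Kdm5c TPM with the control plasmid and 46.1% ± 4.09 in shKmt2f libraries (exact permutation p = 0.0571, before correction). Of the TPM of Kdm5a, Kdm5b and Kdm5c together, Kdm5a made up 39.7% ± 5.21 in control and 44.1% ± 0.913 in shKmt2f libraries, and the groups overlapped for each of the 3 genes. The Kdm5c share was 30.7% in control replicate 3 and 16.6% to 20.9% in the other 6 libraries.

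The 3 CoREST scaffolds differed in level by a wide margin. Rcor2 (ENSMUSG00000024968; chromosome 19, 7267325 to 7275225), the form known from neural progenitors, made up 89.6% to 95.2% of the TPM of the 3 genes in every library. It stood at 276, 270 and 331 TPM with the control plasmid and 126, 268, 289 and 274 TPM with shKmt2f. One library, shKmt2f replicate 1, lay far below the others, and the remaining shKmt2f libraries lay within or next to the control range. The log2 fold change of -0.36 (s.e. 0.28) did not pass (limma adjusted p = 0.411), and it was -0.07 without shKmt2f replicate 1. That library was low for each of the 4 Rcor2 transcripts, whose shares of the gene hardly moved: coding transcripts made up 81.2% ± 1.35 in control and 82.6% ± 1.17 in shKmt2f libraries. In the same library the progenitor markers had their lowest sum of the 7 libraries, 657 TPM, and the photoreceptor markers stood at 859 TPM; their part in the Rcor2 level was not tested.

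Rcor1 (ENSMUSG00000037896; chromosome 12, 111039351 to 111115901), the founding CoREST gene, was low and uneven. It stood at 4.85, 5.93 and 12.5 TPM with the control plasmid and 1.70, 2.28, 8.24 and 9.35 TPM with shKmt2f. Within shKmt2f, replicates 1 and 2 lay below every control library whereas replicates 3 and 4 lay above control replicates 1 and 2. The means of 7.77 ± 4.15 and 5.40 ± 3.96 TPM gave a log2 fold change of -0.60 (s.e. 0.54, limma adjusted p = 0.481). Most of the unevenness was in Rcor1-202 (2720 bases), at 2.76, 3.15 and 8.85 TPM with the control plasmid and listed at 0, 0.623, 5.11 and 6.12 TPM with shKmt2f. Rcor1-201 (5684 bases) was steadier, between 1.66 and 3.67 TPM in all 7 libraries.

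Rcor3 (ENSMUSG00000037395; chromosome 1, 192098546 to 192138062), the scaffold reported to dampen demethylation in other cells, stood at 9.11, 12.9 and 14.0 TPM with the control plasmid and 12.9, 18.0, 17.0 and 15.3 TPM with shKmt2f. The groups overlapped, and the log2 fold change was 0.38 (s.e. 0.18, limma adjusted p = 0.189). As a share of the 3 scaffolds, Rcor3 was 3.84% ± 0.665 in control and 6.50% ± 1.88 in shKmt2f libraries, without overlap between the groups, a share that also carries the low Rcor2 of shKmt2f replicate 1. Rcor3-204, of 3643 bases and annotated for nonsense-mediated decay, stood at 0.710, 0.728 and 0.613 TPM with the control plasmid and 1.49, 1.31, 1.48 and 2.03 TPM with shKmt2f. Its groups did not overlap, and its log2 fold change of 0.61 (s.e. 0.18) did not pass (limma adjusted p = 0.0953).

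Rest (ENSMUSG00000029249; chromosome 5, 77265491 to 77286432) had the lowest summed TPM of the 9 genes. It stood at 2.05, 3.84 and 2.83 TPM with the control plasmid and 3.45, 3.56, 3.14 and 3.06 TPM with shKmt2f. The shKmt2f libraries lay within the control range, and the log2 fold change of 0.16 (s.e. 0.18) did not pass (limma adjusted p = 0.571). It turned to -0.14 with the GC and length correction. Both Rest transcripts are coding. Rest-202 made up 21.1% ± 5.05 of the gene in control and 31.0% ± 8.81 in shKmt2f libraries (exact permutation p = 0.143).

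Genes known to be repressed by REST through an RE1 element outside neurons were then counted. Of 24 such genes 23 were in the tables and 18 were tested, of which 6 rose and 0 fell in limma, beside 10.4% and 3.69% of all genes, and their median log2 fold change was 0.39. Chgb, a granin of secretory granules, rose from 35.9 ± 12.1 to 81.6 ± 6.17 TPM (log2 fold change 1.21, s.e. 0.19, limma adjusted p = 0.0129). Snap25, a SNARE protein of synaptic vesicle fusion, rose from 48.6 ± 17.8 to 100.8 ± 9.09 TPM (1.09, s.e. 0.21, limma adjusted p = 0.0195). Syp, which encodes synaptophysin, rose from 105.2 ± 10.6 to 152 ± 18.3 TPM (0.52, s.e. 0.13, limma adjusted p = 0.0346), and the potassium channel gene Kcnh7 from 0.975 ± 0.228 to 1.88 ± 0.0875 TPM (0.55, s.e. 0.14, limma adjusted p = 0.0380). Leaving out any library other than control replicate 2 left between 1 and 3 of the list higher, with Chgb still called in each case. Snap25 then lost its call without control replicates 1 or 3 or shKmt2f replicates 1 or 2 (adjusted p of 0.0574 to 0.0717 in limma), Syp also without shKmt2f replicate 3 (0.0644 to 0.0975), and Kcnh7 without any of these 6 libraries (0.0742 to 0.1205). Syp did not pass with median-ratio scaling (0.40, limma adjusted p = 0.0794) or length weighting (0.37, 0.0528), and Kcnh7 did not with the replicate block (0.55, 0.114). Of the list 4 were higher with median-ratio scaling and 3 with the block. With the GC and length correction 4 were higher and 1 lower, Kcnh7 turned to -0.19, and the list's median was 0.19. Several of these genes are also expressed in ganglion, amacrine and photoreceptor cells, whose marker sums, given above, were higher in every shKmt2f library than in any control library. Those sums rest on few genes: Otx2 made up 70.9% of the mean photoreceptor sum with shKmt2f, Gap43 75.0% of the ganglion cell sum and Ptf1a 44.8% of the amacrine and horizontal cell sum. Taken singly, groups were apart with shKmt2f higher for 3 of 7 photoreceptor, 4 of 7 ganglion cell and 4 of 6 amacrine and horizontal cell markers, beside 19.2% of all genes. The shKmt2f mean was below the control mean for Nrl and Nr2e3 (photoreceptor), Sncg (ganglion cell) and Tfap2a (amacrine and horizontal cell), at 94.3%, 93.5%, 68.0% and 86.1% of control, with overlapping groups for each. The part of cell composition in these counts was not tested.

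The core of the RE1 element, searched on both strands as AGCACC, then 2 bases of any kind, then GGACAG, was present in 17 of 32851 RefSeq promoter windows of GRCm38.p6 (0.0517%), each reaching from 250 bases before to 50 bases after a gene's start. Windows were available for 7 of the 9 genes, not for Kdm5a and Rest, and 0 of the 7 held the core. Among the RE1 list it was found for 1 of 17 genes with a window, Gria2, which encodes an AMPA receptor subunit. Of the 16 genes with the core 7 were tested, and their median log2 fold change was 0.31. Of these 1, Robo2, rose and 0 fell, beside 10.4% and 3.69% of all genes. Gria2 and Robo2 are shown with the core in capitals, 10 bases on either side being in lower case. Both are on the strand of the gene (chromosome 3, 80802982 to 80803015, and chromosome 16, 75447346 to 75447379, both minus). The Gria2 match reads on the opposite strand.
Gria2 promoter: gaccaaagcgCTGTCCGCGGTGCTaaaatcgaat
Robo2 promoter: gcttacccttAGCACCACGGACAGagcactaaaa
Robo2, an axon guidance receptor gene, stood at 17.4, 28.7 and 19.0 TPM with the control plasmid and 76.6, 80.6, 58.8 and 58.6 TPM with shKmt2f, and its rise of 1.63 on the log2 scale (s.e. 0.20) passed (limma adjusted p = 0.00626, and at most 0.0314 leaving out 1 library). Gria2 stood at 1.80 ± 0.7807 and 2.40 ± 0.3203 TPM and did not pass (limma adjusted p = 0.314).

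Of 10 further CoREST and LSD2 partners, all tested, 1 was higher and 0 were lower, beside 10.4% and 3.69% of all genes. Their median log2 fold change was 0.21, and it was 0.04 without control replicate 1 and 0.09 with median-ratio scaling. The gene was Zmym2, a zinc finger subunit found with LSD1 and CoREST, at 13.6, 65.0 and 18.3 TPM with the control plasmid and 92.9, 112, 82.0 and 91.3 TPM with shKmt2f (log2 fold change 1.84, s.e. 0.47, limma adjusted p = 0.0410). Control replicate 2 stood apart from the other control libraries for this gene, and leaving out any library other than that one ended the call, with limma adjusted p of 0.0762 to 0.128.

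Of 9 KDM5 partners, 3 rose and 0 fell, beside 10.4% and 3.69% of all genes, with a median log2 fold change of 0.56. With the GC and length correction 2 of them were higher and the median was 0.31. Morf4l1, a chromodomain protein that binds KDM5A, rose from 327.3 ± 39.8 to 479.5 ± 18.4 TPM (0.56, s.e. 0.10, limma adjusted p = 0.0190). Emsy, a KDM5A-associated repressor subunit, rose from 18.1 ± 7.86 to 40.0 ± 4.00 TPM (1.17, s.e. 0.24, limma adjusted p = 0.0237). Rb1, which encodes the retinoblastoma protein, rose from 65.7 ± 15.7 to 109 ± 16.7 TPM (0.74, s.e. 0.18, limma adjusted p = 0.0347). When only protein-coding transcripts were summed, Rb1 did not pass (limma adjusted p = 0.383), nor with length weighting (0.116) or the GC and length correction (0.31, adjusted p = 0.191). Leaving out a library other than control replicate 2 left 0 or 1 of the list higher, and in the lost cases the adjusted p in limma was 0.0511 to 0.0625 for Morf4l1, 0.0535 to 0.0741 for Emsy (still called without shKmt2f replicate 3) and 0.0665 to 0.106 for Rb1.

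Among factors that recruit LSD1, 5 of 8 were in the tables and 4 were tested. Of these 1 was higher and 0 were lower, beside 10.4% and 3.69% of all genes. Their median was 0.03, and -0.25 with the GC and length correction. Insm2, a zinc finger gene related to Insm1, rose from 11.1 ± 0.697 to 20.9 ± 4.30 TPM (0.83, s.e. 0.17, limma adjusted p = 0.0249). The Insm2 call was lost without control replicates 1 or 3 or shKmt2f replicates 1 or 2 (0.0654 to 0.0809). Insm1 itself stood at 6.78, 6.65 and 20.1 TPM with the control plasmid and 5.35, 5.95, 6.67 and 10.4 TPM with shKmt2f and did not pass (limma adjusted p = 0.441). The 14 REST cofactors and controllers, all tested, gave 0 calls in either direction in limma and a median of 0.18. The list gave 2 calls with the GC and length correction, Btrc (0.44, limma adjusted p = 0.0338) and Srrm3 (0.43, 0.0329), and 2 without control replicate 2, Usp15 (1.48, 0.000417) and Sin3a (0.73, 0.0341). Over all genes, 652 of 12453 were called higher with that correction and 2432 of 12374 without control replicate 2. Usp15 was also called with coding transcripts only (0.92, limma adjusted p = 0.0488) and with length weighting (0.98, 0.0495). Ctdspl was called lower with median-ratio scaling (-0.46, limma adjusted p = 0.0398) and with length weighting (-0.52, 0.0499). The median was 0.00 without control replicate 1. Of these genes, Sin3b, the scaffold of a deacetylase complex, stood at 103.6 ± 9.69 and 94.6 ± 2.75 TPM, and Ehmt2, an H3K9 methyltransferase gene, at 83.6 ± 25.0 and 87.2 ± 7.67 TPM. Srrm4, a splicing factor of neuronal micro-exons, was at 6.86, 8.25 and 8.98 TPM with the control plasmid and 12.1, 10.9, 9.66 and 10.01 TPM with shKmt2f, without overlap, and did not pass (limma adjusted p = 0.124).

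Of 19 other JmjC demethylase genes 17 were tested, 2 rose and 0 fell, beside 10.4% and 3.69% of all genes, with a median of 0.09. Kdm6a, an X-linked H3K27 demethylase gene, stood at 3.15, 11.02 and 10.02 TPM with the control plasmid and 30.8, 33.9, 21.4 and 25.0 TPM with shKmt2f (1.79, s.e. 0.36, limma adjusted p = 0.0226). A setting picked once the values were known kept control replicate 3 as the only control library. The log2 fold change of Kdm6a was then 1.36. That of Ddx3x, another X-linked gene that escapes inactivation, was 1.57, whereas that of Kdm5c was -0.29. Over all libraries, X-linked Eif2s3x had a log2 fold change of 0.12 (s.e. 0.21, limma adjusted p = 0.74). The part of the donors' sex in the levels of these genes was not tested. Kdm4c, an H3K9 demethylase gene, rose from 10.7 ± 3.08 to 20.8 ± 4.00 TPM (0.91, s.e. 0.21, limma adjusted p = 0.0312). Kdm6a did not pass without shKmt2f replicates 1 or 2 (0.0648 and 0.0659), nor Kdm4c without control replicates 1 or 3 or shKmt2f replicates 1, 2 or 4 (0.0650 to 0.104) or with the GC and length correction (0.46, limma adjusted p = 0.0649). Of 9 H3K4 methyltransferase genes 8 were tested and 0 passed in limma (1, Setd1a, was lower with length weighting), with a median of 0.07. Kmt2c stood at 9.74 ± 2.11 and 13.0 ± 2.94 TPM and Smyd3 at 9.53 ± 1.42 and 9.12 ± 1.23 TPM.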

How the data were processed

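RNA was made into libraries with SMART-Seq v4 and a Nextera kit, per the labels' protocols. The submitters' processing notes name Salmon 0.11.3, sleuth 0.30.0 and GRCm38.p6. The authors deposited TPM per transcript, with p-values, q-values and effects on a natural log scale, the same in all 7 tables, per the file headers. Of 55475 rows, 71 hold no TPM. TPM keeps no depth, so the depth is unknown and counting intervals are not given.

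TPM was summed per gene. Tests were limma 3.58.1 (R 4.3.3) on log2(TPM + 1), trend and robust, with genes or transcripts at 1 TPM in 3 libraries or more, and two-sided exact permutation tests, checked on simulated data. Positions and exons are from GENCODE vM21, promoters from RefSeq. Alternatives were a pseudocount of 0.1, no filter, median-ratio scaling, coding transcripts only, length weighting, a loess correction on GC content and length (span 0.3), a replicate block and leaving out each library.

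Genes named are the 9, their transcripts at a mean of 1 TPM or more, and per list up to 4 passing genes of smallest adjusted p or, with none, the 2 of highest level, the X and Y genes beside Kdm5c, and the 3 genes closest in profile to Kdm5a. Insm1, Srrm4, Robo2, Gria2, Btrc, Srrm3, Usp15, Sin3a, Ctdspl, the single cell type markers, the transcripts below 1 TPM and the genes under other observations were named after their values were seen. The 9 genes and the lists were chosen with earlier results of these data known. The labels give no pairing by replicate number. Correlations of same-numbered libraries' deviations were 0.079, 0.065 and 0.06, within the -0.169 to 0.098 of other pairs. Such values cannot show whether libraries shared a batch.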

Additional observations from a re-analysis of the deposited data

Results flagged for a closer look

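In 48 sets of 4 shKmt2f values (9 genes and 39 transcripts), 5 had 1 library far from the other 3 relative to their whole range, where chance gives about 1 in 20. All were low values of shKmt2f replicate 1. Rcor2 stood at 125.7 TPM there against 267.7 to 288.5 TPM in the other shKmt2f libraries. Its transcripts Rcor2-204, Rcor2-202 and Rcor2-203 stood at 57.6, 38.0 and 21.2 TPM against 123 to 136, 76.3 to 82.3 and 46.5 to 51.4 TPM, and these are parts of the same gene sum. Rcor3-214, a coding fragment of another scaffold gene, stood at 1.39 against 2.29 to 2.48 TPM. Over all 12456 genes tested, shKmt2f replicate 1 was low in this way for 0.57%, close to 0.514% to 0.706% for the other shKmt2f libraries.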

How the results depend on the processing

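All genes past the threshold numbered 1755 (73.8% higher), and 283 to 3004 leaving out 1 library. Median-ratio scaling shifted the median fold change over all genes from 0.09 to -0.02 and gave 57.7% higher of 1940 calls, length weighting 62.4% of 2500, and the GC and length correction 48.8% of 1335. Of the 9 genes 1 passed, 0 with the GC and length correction, 2 with the replicate block (Kdm5a, and Rcor1 at -0.91, limma adjusted p = 0.0298) and 0 to 2 leaving out 1 library. The labels give no pairing by these numbers, and shKmt2f replicate 4 is alone in its block and adds nothing to the group term. With the block 1377 genes passed. Member transcripts past the threshold were 0, and 0 to 3 leaving out 1 library (3 without control replicate 2: Kdm5a-204, Kdm5a-201 and Kdm5b-203).

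Directions turned as follows. With median-ratio scaling Ehmt2 and Hdac1 were -0.03, Kdm1a-203 -0.04, Kdm5b-205 -0.03 and Rest-201 -0.07. With the GC and length correction Rest was -0.14, Gria2 -0.33, Kcnh7 -0.19 and Sin3b 0.02. With length weighting Ehmt2 was -0.01, and with coding transcripts only Smyd3 was 0.01. A pseudocount of 0.1 gave Kdm1a-203 -0.12 and Kdm1a-204 0.01, and the replicate block Kdm1a-203 -0.33. Without control replicates 1 and 2, chosen after seeing the data, Kdm5c was -0.29, Smyd3 0.06 and Ehmt2 -0.37. Leaving out 1 library, ranges that crossed 0 were -0.00214 to 0.33 for Rest, -0.14 to 0.05 for Smyd3, -0.05 to 0.33 for Ehmt2, -0.70 to 0.03 for Insm1, -0.03 to 0.39 for Kdm1a-202, -0.48 to 0.60 for Kdm1a-203, -0.25 to 0.26 for Kdm1a-204, -0.09 to 0.08 for Kdm5b-202, -0.04 to 0.10 for Kdm5b-205, -0.33 to 0.20 for Rcor2-201, -0.07 to 0.31 for Rcor3-205 and -0.13 to 0.19 for Rest-201. The difference in the share of protein-coding transcripts, shKmt2f minus control, also crossed 0, at -0.31 to 6.75 percentage points for Kdm5a and -1.60 to 1.42 for Kdm5c. The cause of these turns was not tested.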

Other observations

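Control replicate 1 had the lowest level of all 7 libraries for 7 of the 9 genes and shKmt2f replicate 2 the highest for 5, where control replicate 1 was lowest for 39.3% and shKmt2f replicate 2 highest for 30.1% of all genes tested. In several partners, control replicate 2 stood with the shKmt2f libraries. Hdac2, the deacetylase of CoREST complexes, stood at 124.5, 216.8 and 121.7 TPM in control and 221.6 to 234.4 TPM in shKmt2f libraries (log2 fold change 0.62, limma adjusted p = 0.0624). For Hdac2 these were 0.89 and 0.000843 without control replicate 2, 0.49 and 0.196 without control replicate 1, 0.47 and 0.173 without control replicate 3, and 0.16 and 0.350 with the GC and length correction. With all libraries, Hdac2 passed when only protein-coding transcripts were summed (0.64, limma adjusted p = 0.0485). Usp15, a deubiquitinase that acts on REST, stood at 15.3, 43.7 and 16.7 TPM in control and 45.1 to 49.4 TPM in shKmt2f libraries (1.02, limma adjusted p = 0.0617). Its values were 1.48 and 0.000417 without control replicate 2, 0.75 and 0.208 without control replicate 1, 0.81 and 0.1704 without control replicate 3, and 0.71 and 0.0958 with the GC and length correction. With all libraries, Usp15 passed with coding transcripts only (0.92, limma adjusted p = 0.0488) and with length weighting (0.98, 0.0495). Hdac1, the other deacetylase, was even, at 91.7 to 98.1 TPM in control and 96.6 to 106.5 TPM in shKmt2f libraries (limma adjusted p = 0.514).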
